A study of Drosophila melanogaster with 12 samples.

Results

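Axon guidance genes and neural adhesion genes were followed in late Drosophila melanogaster embryos that lack, or carry altered, ELAV, an RNA-binding protein of neurons that controls alternative splicing and poly(A) site choice. The set held 46 genes of the 17561 in the deposited count table, chosen by name from the guidance and adhesion families and not by their values. It comprised Slit and its Robo receptors, Netrins and their receptors, Semaphorins and Plexins, Ephrin and Eph, Wnt5 and its receptor drl, receptor tyrosine phosphatases, glypicans, and adhesion proteins of the fasciclin, leucine-rich repeat, teneurin, immunoglobulin, cadherin and neurexin kinds. Each of 4 groups had 3 libraries of poly(A)-selected RNA from embryos aged 20 to 24 h. Embryos of the WT control group carry mutant elav over the FM7 balancer chromosome, so it is not free of mutant elav. The elav null group lacks elav, the elav fne double null group (double null below) also lacks fne, which encodes a relative of ELAV, and the elav WDd group (WDd below) carries an elav allele whose change the labels do not describe. All mutant embryos were recognised by the missing green fluorescence of the FM7 balancer. Only the WT group carries FM7, so the balancer and the mutant genotype cannot be told apart in comparisons with WT. The labels give no sex of the embryos. Whole embryos were used, so fewer cells of a type and less RNA per cell cannot be told apart. Whether libraries of 1 group came from separate embryo collections is not stated, so the spread behind each p-value may be technical.

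Growth cones at the tips of axons read attractive and repulsive cues through receptors on their surface. In the fly nerve cord, Netrins draw axons to the midline through Frazzled, and Slit, secreted at the midline, repels axons that carry Robo receptors. Adhesion proteins hold axons in bundles and help motor axons and their muscle targets, and later pre- and postsynaptic cells, to find each other. Many of these genes are also used outside the nervous system, in muscle, trachea and epidermis, so a level in a whole embryo sums several tissues.

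Library totals ranged from 22491041 to 97043662 counts, and the lowest count of any of the 46 genes in any library was 161, so all were measured in every library. In CPM (library-scaled counts with TMM factors, used for every level below), elav was at 68.6, 109.5 and 161 in WT replicates 1 to 3, at 3.98 to 6.27 in elav null, at 4.99 to 6.12 in the double null, and 146 to 191 for WDd. The gene fne was at 173, 243 and 36.2 in elav null replicates 1 to 3, against 19.6 to 30.6 in the double null, so the library labelled elav null replicate 3 is near the double null in fne. Genes named for a call against WT are also given in elav null without it. Summed CPM of 7 muscle markers was 21627 to 25362 in WT and 24381 to 27300.0 in WDd, but 9360.2, 5596 and 1599 in elav null replicates 1 to 3 and 1514 to 3155 in the double null. Summed CPM of 5 neuroblast markers was 32.1 to 44.98 in WT, 41.4, 48.1 and 122 in elav null replicates 1 to 3, 122 to 149.6 in the double null, with 29.5 to 47.7 in WDd. In the muscle and neuroblast sums, too, the library labelled elav null replicate 3 was nearer to the double null than the other elav null libraries were. For 8 neuron markers the sums were 1645 to 3438, 1670.5 to 2823, 1514 to 1844 and 2235 to 2977 in the same order, for 6 glia markers 261 to 369, 371 to 450.2, 369.7 to 464 and 298 to 310.4, and for 5 trachea markers 887 to 1062, 322 to 597, 586 to 644 and 727 to 828. Every marker of these 5 lists had counts in every library. Eggshell and yolk markers, which belong to adult females, summed to 82.7, 612 and 13.7 CPM in elav null replicates 1 to 3 and to at most 5.14 elsewhere. The part of these marker differences in the results below was not tested.

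Per kilobase of exon, the highest levels in WT were those of Lac, the septate-junction protein Lachesin, at 54.5 ± 2.19 CPM per kb (mean ± SD, n = 3), and of Fas1, a homophilic adhesion protein, at 42.5 ± 10.4. The leucine-rich repeat protein gene caps, the immunoglobulin protein gene tutl, Fas2 and sli followed at 32.4 ± 6.96, 32.4 ± 13.8, 28.4 ± 5.89 and 27.8 ± 10.2 CPM per kb. Their SDs overlapped one another and that of Fas1, so the order among these 4 and Fas1 was not resolved. Nor was that of Lac and Fas1, as Fas1 reached 54.05 CPM per kb in a WT library and the lowest for Lac was 52.0. The lowest were Dscam3, side, Nlg1, robo2 and Lar at 5.43 ± 2.40, 5.30 ± 1.96, 4.49 ± 1.17, 4.18 ± 1.59 and 2.23 ± 0.790 CPM per kb. The SDs of Dscam3, side, Nlg1 and robo2 overlapped one another and those of otk, beat-Ia and Wnt5, at 5.97, 5.90 and 5.83. Their order was not resolved either. Lar, robo2 and Nrt share exon bases with other annotated genes, 83.6% of them for Lar with CG46244, 41.04% for robo2 with a pair of noncoding genes and 21.8% for Nrt with mus302. How the counting treated strand and shared bases is not given in the sources used here, so the levels of these 3 genes are uncertain. So are the places of Lar and robo2 among the lowest, since levels were divided by the full exon length. A further 6 genes shared at most 5.50% of their exon bases, and the other 37 none.

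The 3 WT libraries differed among themselves in the same way in most of these genes. WT replicate 1 was the lowest of the 3 in 38 genes and WT replicate 3 the highest in 43, and both held in 37. Summed over the 46 genes, the levels were 3604, 4666 and 6594 CPM in WT replicates 1 to 3, and 4311 to 5924 CPM in the 9 mutant libraries. WT replicates 1 and 3 therefore lay outside the range of all mutant libraries, on opposite sides. Ten-a, a teneurin that matches synaptic partners, stood at 84.2, 149 and 292 CPM, so replicate 3 was 3.47-fold above replicate 1, whereas Lac stood at 119.8, 112 and 121 CPM, a 1.01-fold difference. The coefficient of variation over the 3 WT libraries ranged from 3.56% (Fas3) to 60.7% (Ten-a) and was above 30% in 20 genes.

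This difference followed the length of the transcripts. Across the 46 genes, Spearman's rho between log2 of the replicate 3 to replicate 1 ratio and summed exon length was 0.81, and across 8398 tested genes of at least 5 CPM it was 0.79, where all points share the same pair of libraries. The 23 longer genes had a median log2 ratio of 1.15 and the 23 shorter genes one of 0.27. Median coefficients of variation were 37.9% and 11.6%. As all 12 libraries shared 1 fit, the long teneurins, Dscam genes, CadN and Nrx-1 carried wide errors in every comparison, also those without WT. Ten-a had an SE of 0.34 both in the double null against WT and in the double null against elav null. The trend with length was not confined to WT. In WDd replicate 2, median log2 levels relative to the WT mean were −0.30 over genes of 218 to 990 bp. They were 0.30 over genes of 5675 bp or more. In WDd replicate 3 the same medians were 0.04 and −0.01. What made long transcripts differ between libraries was not tested. Each comparison below was therefore also run with a library-wise correction for exon length, chosen after seeing the data.

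**Figure D1:**
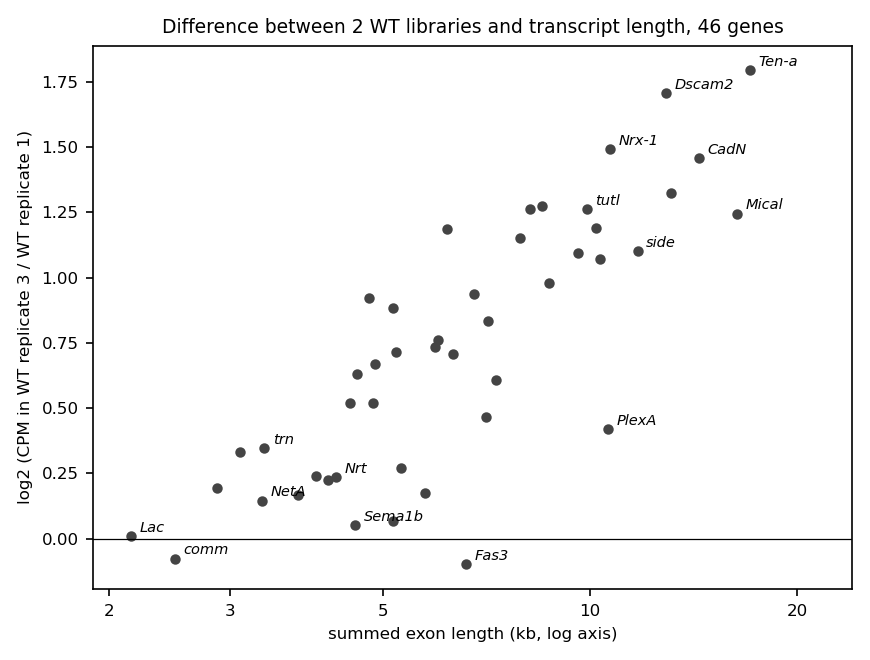
Each point is 1 of the 46 genes, with its summed exon length in kb on a log axis and the log2 ratio of its CPM in WT replicate 3 to that in WT replicate 1 on the vertical axis. The ratio is higher for longer genes (Spearman's rho 0.81), with Ten-a at the top.

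**Figure D2:**
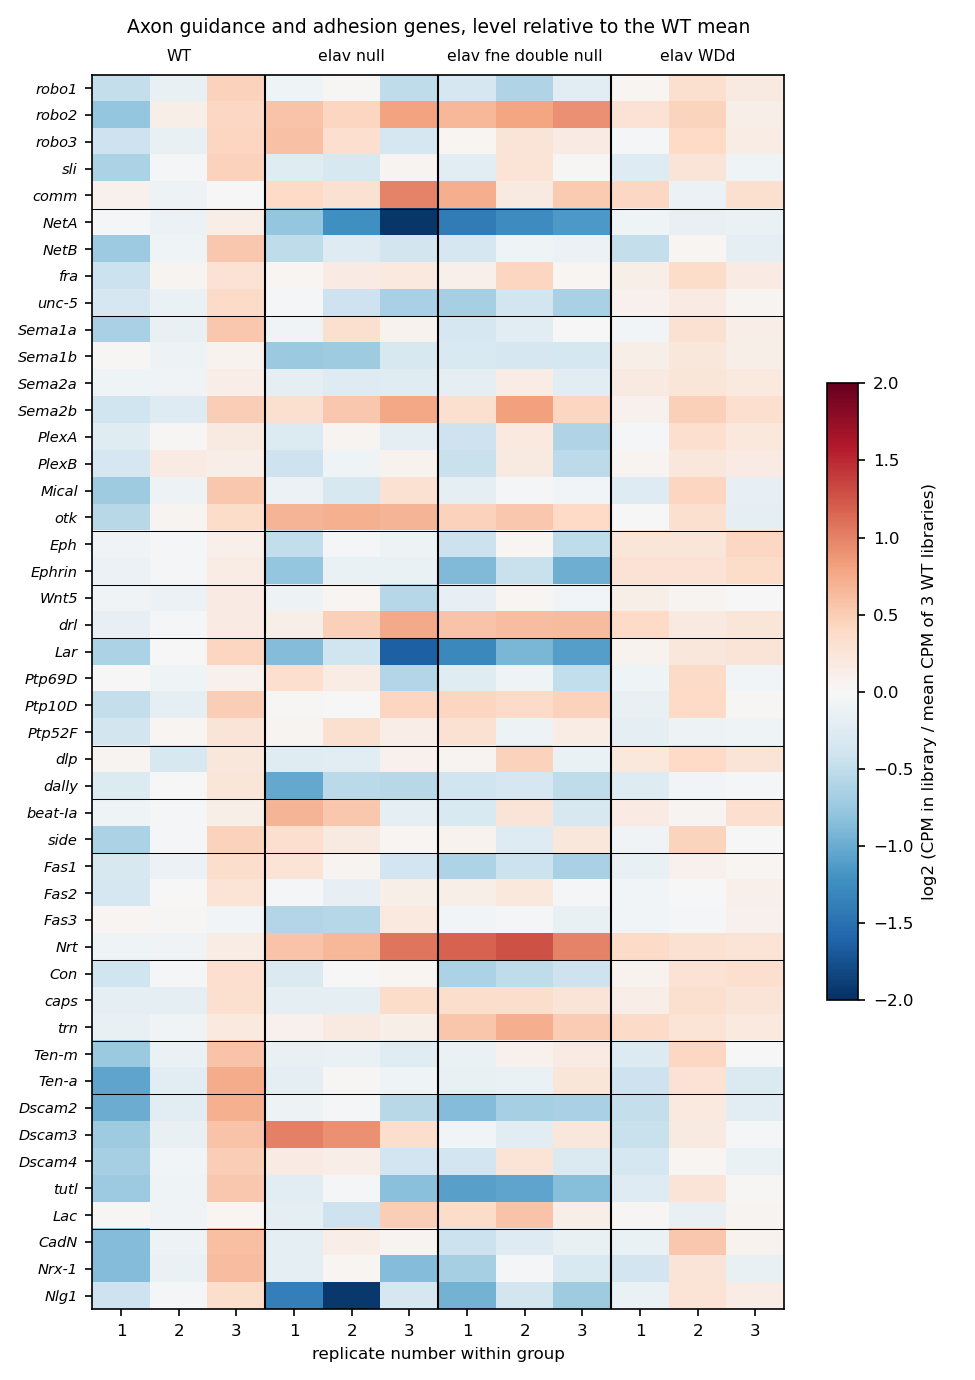
Rows are the 46 genes by role and columns the 12 libraries. Colour shows log2 of the CPM over the mean CPM of the 3 WT libraries, blue below and red above it. Within WT most rows are lowest in replicate 1 and highest in replicate 3, while NetA is low and Nrt high in all 6 elav null and double null libraries.

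Calls among the 46 genes in embryos that lack elav are given beside the shares of all genes. A gene that was not called may still have changed. In elav null against WT, 2 were called higher and 4 lower (edgeR quasi-likelihood test, adjusted p under 0.05 over all 14031 genes tested), beside 5.99% and 11.7% of all genes tested. NetA, Nlg1, dally and Sema1b fell, and Nrt and otk rose. In the double null against WT, 4 were called higher and 4 lower, beside 6.68% and 14.7% of all genes. NetA, Lar, tutl and Ephrin fell, and Nrt, robo2, drl and trn rose. In shares of the 46, these counts were 4.35% and 8.7% for elav null and 8.7% in each direction for the double null. Whether these shares differ from those of all genes was not tested. The median log2 fold change of the 46 genes was −0.05 in elav null and −0.09 for the double null, against −0.11 and −0.03 over all genes tested. Counted instead by whether all 3 libraries of a group lay beyond all 3 of the other, 4 genes were higher and 5 lower in elav null, beside 10.2% and 21.0% of all genes. The double null gave 7 and 9, beside 17.0% and 25.4%. NetA and Nrt were called in both comparisons, which share their WT libraries. Given side by side, NetA changed by −1.24 and −1.26 and Nrt by 0.78 and 1.16 on the log2 scale.

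Single libraries moved these counts. Leaving out 1 library gave 1 to 5 higher and 1 to 5 lower calls in elav null. In the double null it gave 2 to 7 higher and 1 to 8 lower calls. Shares of all genes called higher and lower were then 3.37 to 5.82% and 7.73 to 11.1% in elav null. In the double null they were 4.11 to 6.14% and 9.91 to 13.2%. Without the library labelled elav null replicate 3, Fas3 (log2 fold change −0.57 ± 0.14 SE, edgeR adjusted p = 0.0127) was called lower and Dscam3 (0.97 ± 0.29 SE, edgeR adjusted p = 0.037) higher, beside 11.1% and 5.82% of all genes. Also without it, otk lost its call in elav null (0.70, edgeR adjusted p = 0.0527), and drl, trn and Ephrin, not called there, gave 0.32, 0.15 and −0.41. Without WT replicate 3, the library highest in long genes, 5 genes were called higher in elav null and 7 for the double null, beside 5.21% and 6.14% of all genes. Those added there were robo2, Sema2b and Dscam3 in elav null (log2 fold changes 0.88, 0.89 and 1.19) and Ptp10D, otk and Sema2b for the double null (0.77, 0.71 and 0.88). Without WT replicate 1, the library lowest in them, 8 genes were called lower in the double null, beside 11.5%, with unc-5, Con, Dscam2 and Fas1 added (−0.67, −0.66, −1.02 and −0.68), and Lar (−1.10) was added to the lower calls of elav null, 5 in all beside 8.38% of all genes. Lar was also called lower in elav null without elav null replicate 2 (−1.19 ± 0.32 SE, edgeR adjusted p = 0.027), and drl higher without elav null replicate 1 (0.63 ± 0.17 SE, edgeR adjusted p = 0.0239). When only the 6 libraries compared entered the fit, otk, Sema1b, dally and Nlg1 in elav null and robo2 in the double null were not called (edgeR adjusted p 0.0663 to 0.167). With RLE scaling Nlg1 in elav null and tutl in the double null were not called (edgeR adjusted p = 0.0696 and 0.0521). With the length correction all 6 main calls of elav null and all 8 of the double null against WT were kept. It added Dscam3, Sema2b, drl and robo2 to the higher calls in elav null and Ptp10D, Sema2b, caps and otk to those in the double null, giving 6 and 8 higher calls beside 9.13% and 9.74% of all genes.

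**Figure D3:**
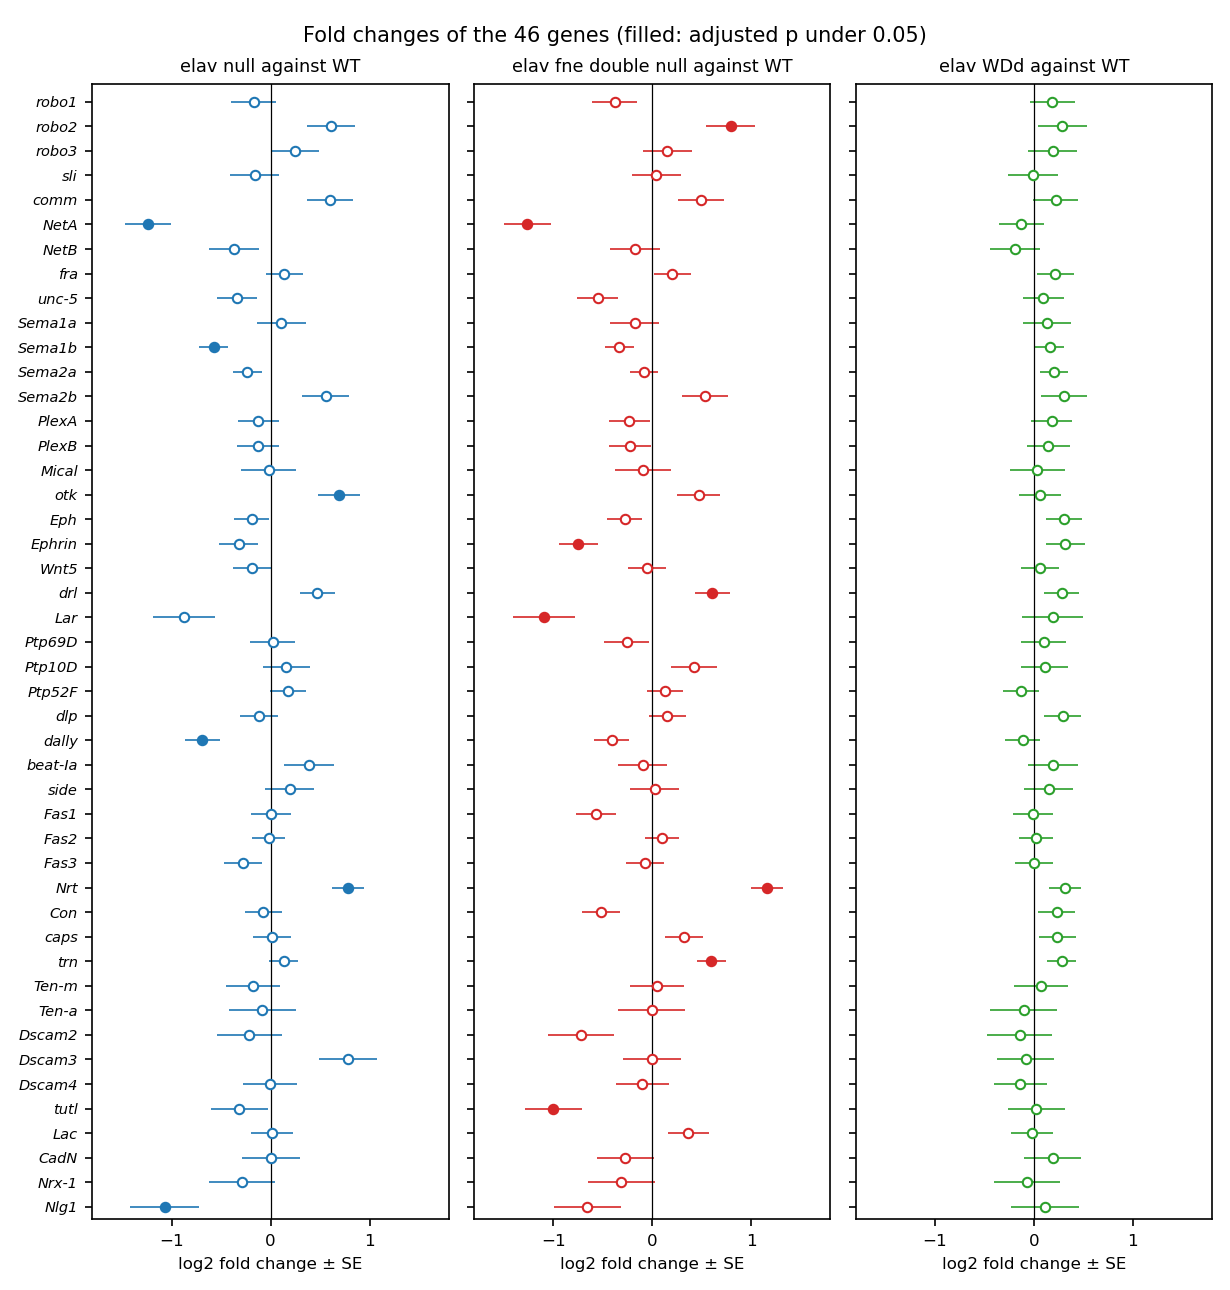
Log2 fold changes with standard errors of the 46 genes against WT, 1 panel each for elav null, double null and WDd, with genes called at an edgeR adjusted p under 0.05 marked. NetA lies near −1.24 and −1.26 in the first 2 panels, and in WDd all genes lie between −0.19 and 0.32.

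Among the midline cues, NetA fell in both null groups. NetA (CG18657, X: 14604012 to 14653928; coordinates on dm6 throughout, 1-based) encodes 1 of the pair of fly Netrins. It stood at 49.9, 46.5 and 55.2 CPM in WT replicates 1 to 3, at 29.5, 21.5 and 13.2 in elav null, at 19.3, 21.2 and 22.9 in the double null and at 47.4, 45.7 and 46.02 in WDd. All 6 libraries of the null groups lay below all 6 of WT and WDd, and the lowest was the library labelled elav null replicate 3. The change against WT was −1.24 ± 0.23 SE on the log2 scale in elav null (edgeR adjusted p = 0.00221) and −1.26 ± 0.23 SE in the double null (edgeR adjusted p = 0.00152). Without the library labelled elav null replicate 3, elav null gave −0.98 ± 0.18 SE (edgeR adjusted p = 0.00175). Its paralogue NetB, expressed with it at the midline, was at 82.3, 128 and 197 CPM in WT, at 95.6, 114 and 106 in elav null and at 108, 129 and 125 for the double null, so the WT range enclosed both null groups. NetB was not called, with log2 fold changes of −0.37 ± 0.25 and −0.17 ± 0.25 SE. The attractive Netrin receptor gene fra gave 0.14 ± 0.18 and 0.20 ± 0.18 SE and the repulsive receptor gene unc-5 −0.34 ± 0.21 and −0.55 ± 0.21 SE, none of them called.

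Of the Slit receptors, robo2 rose in the double null. The gene (CG5481, 2L: 1380086 to 1420453) encodes a Robo receptor that helps set how far from the midline axons run. Its levels were 15.2, 28.2 and 34.5 CPM in WT, 38.7, 34.9 and 45.3 in elav null, 41.3, 44.7 and 48.8 for the double null, with 31.6, 35.2 and 28.2 in WDd. All 6 null libraries were above all 3 of WT, while WDd overlapped WT. The change was 0.79 ± 0.25 SE on the log2 scale in the double null (edgeR adjusted p = 0.0352), a call that was lost without WT replicate 1 or any 1 of the double null libraries (log2 0.54 to 0.87) and without the 3 libraries with the fewest detected genes (edgeR adjusted p = 0.0576). In elav null it was 0.61 ± 0.25 SE (edgeR adjusted p = 0.114), or 0.52 without the library labelled elav null replicate 3 (edgeR adjusted p = 0.214), not called. The receptor genes robo1 and robo3, the ligand gene sli and comm, which removes Robo from growth cones that cross the midline, gave −0.17 to 0.60 in elav null and −0.38 to 0.49 in the double null, none called. The noncoding genes that overlap robo2 had at most 20 counts in a library, which does not show how reads over shared bases were counted.

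Among 8 Semaphorin and Plexin genes, Sema1b fell and otk rose in elav null. Sema1b (CG6446, 2R: 17672839 to 17683499), a transmembrane Semaphorin, was at 118, 108 and 122 CPM in WT, 69.5, 70.9 and 92.9 in elav null, 93.7, 91.4 and 90.7 for the double null, with 126, 135 and 126 in WDd. The null libraries were all below WT, and WDd all above it. The log2 fold change in elav null was −0.57 ± 0.15 SE (edgeR adjusted p = 0.0154), a call lost without elav null replicate 1 or 2 (log2 −0.51 to −0.49). It was −0.71 ± 0.14 SE without the library labelled elav null replicate 3 (edgeR adjusted p = 0.00351). The double null gave −0.33 ± 0.15 SE (edgeR adjusted p = 0.135). The gene otk (CG8967, 2R: 12001473 to 12019846) encodes Off-track, a kinase-like receptor linked to Plexin and Wnt signalling. It stood at 19.3, 29.5 and 36.6 CPM in WT, 45.4, 46.5 and 45.8 in elav null, 39.2, 41.4 and 37.5 for the double null, with 28.5, 35.5 and 25.2 in WDd, with every null library above every WT library. Its log2 fold change in elav null was 0.69 ± 0.21 SE (edgeR adjusted p = 0.0402), a call lost when WT replicate 1 or 2 or any 1 elav null library was left out (log2 0.49 to 0.72). In the double null it was 0.47 ± 0.21 SE (edgeR adjusted p = 0.151). Sema1a, the secreted Semaphorins Sema2a and Sema2b, their receptors PlexA and PlexB and the actin-oxidising effector Mical were not called, at −0.23 to 0.56 in elav null and −0.23 to 0.54 in the double null.

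Ephrin, the single fly ligand of the receptor Eph, fell in the double null. The gene (CG1862, 4: 571755 to 580122) was at 86.4, 91.8 and 104 CPM in WT, 54.95, 85.5 and 85.6 in elav null, 51.01, 69.4 and 47.7 for the double null, with 115, 116 and 122 in WDd. The double null was below WT and WDd above it in every library. Its log2 fold change was −0.75 ± 0.20 SE in the double null (edgeR adjusted p = 0.0143), not called without double null replicate 1 or 3 (log2 −0.67 to −0.63), and −0.32 ± 0.20 SE in elav null (edgeR adjusted p = 0.307). Eph itself stood at 105, 108 and 119 CPM in WT and 82.1, 113 and 78.1 in the double null, which overlap (log2 fold change −0.28 ± 0.18 SE, edgeR adjusted p = 0.324).

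Ephrin, Eph, PlexA and PlexB lie on chromosome 4, the small heterochromatic autosome. Over 76 of its genes of at least 5 CPM, the median log2 level relative to the WT mean was −0.11, 0.04 and 0.10 in WT replicates 1 to 3, −0.36, −0.13 and −0.25 in elav null, −0.55, −0.28 and −0.54 for the double null, with 0.16, 0.23 and 0.31 in WDd. On the other arms the library medians lay between −0.24 and 0.08. The chromosome was thus lowest in the double null and highest in WDd. In the double null 42.1% of its genes were called lower against 22.3 to 24.4% on the other arms, and the median log2 fold change was −0.48. Ephrin fell by more than that median, while Eph, PlexA and PlexB, at −0.28, −0.23 and −0.22, lay above it. In WDd against WT the 4 genes gave 0.15 to 0.32, around the chromosome's median of 0.23, and none was called. The part of the chromosome-wide shift in the values of these 4 genes was not tested.

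**Figure D4:**
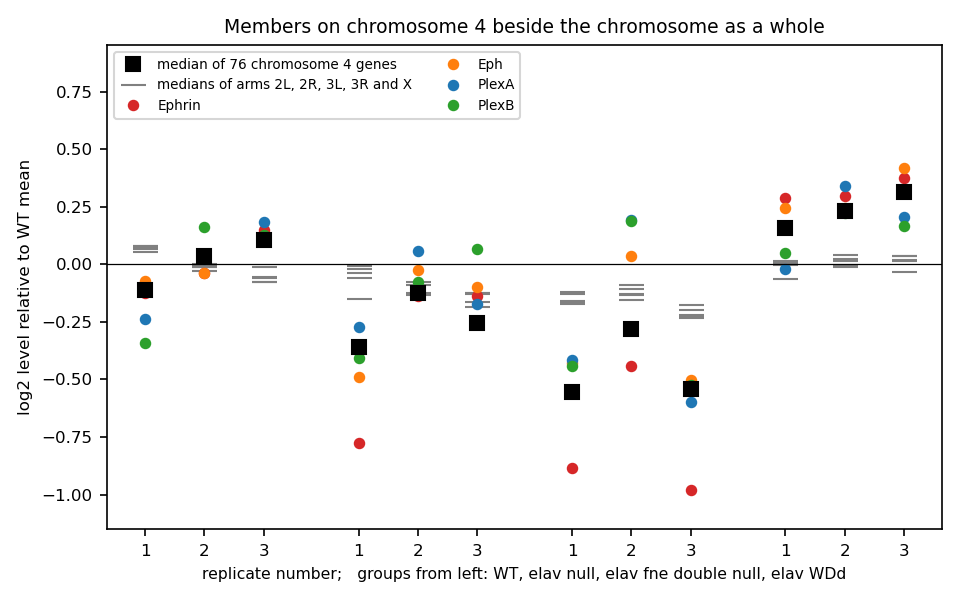
Each symbol is 1 library, grouped by genotype. Black squares give the median log2 level relative to the WT mean over 76 genes of chromosome 4, grey dashes the medians of the other arms, and coloured points Ephrin, Eph, PlexA and PlexB, some of them hidden by others. The chromosome median is lowest in the double null (−0.55, −0.28 and −0.54) and highest in WDd (0.16, 0.23 and 0.31), and Ephrin lies below it in the double null.

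Receptors for other cues changed in the double null in opposite directions. The Wnt5 receptor gene drl (CG17348, 2L: 19190342 to 19208621), which keeps axons out of the posterior commissure, was at 27.7, 30.8 and 34.9 CPM in WT, 33.8, 43.1 and 52.8 in elav null, 46.3, 47.5 and 48.4 for the double null, with 41.2, 35.3 and 36.8 in WDd. Every double null library was above every WT library. The change on the log2 scale was 0.61 ± 0.18 SE (edgeR adjusted p = 0.025), and the call was lost without WT replicate 1 or 2 or any 1 double null library (log2 0.55 to 0.64). Its ligand gene Wnt5 gave −0.18 ± 0.19 and −0.06 ± 0.19 SE in elav null and double null and was not called. The receptor tyrosine phosphatase gene Lar (CG10443, 2L: 19586623 to 19732069), required for motor axon targeting and synapse growth, was at 14.9, 23.2 and 31.2 CPM in WT, 12.6, 17.6 and 7.48 in elav null, 9.43, 12.3 and 10.7 for the double null, with 24.4, 27.1 and 27.5 in WDd. The double null lay wholly below WT, and elav null overlapped it. The fitted log2 fold change was −1.09 ± 0.31 SE in the double null (edgeR adjusted p = 0.0229), lost without WT replicate 2 or 3 or any 1 double null library (log2 −1.17 to −0.80), and −0.87 ± 0.31 SE in elav null (edgeR adjusted p = 0.0722), or −0.60 without the library labelled elav null replicate 3 (edgeR adjusted p = 0.171). CG46244, on the same strand as Lar, shares most of Lar's exon bases and had 0 counts in all 12 libraries. Whether reads over the shared bases were counted for Lar or dropped is not known, so this 0 does not settle the level of Lar. The other receptor phosphatase genes Ptp69D, Ptp10D and Ptp52F were not called, at 0.02 to 0.18 and −0.26 to 0.42.

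The glypican gene dally (CG4974, 3L: 8827505 to 8891192), whose product carries heparan sulfate and binds secreted signals, fell in elav null. It stood at 85.8, 104 and 123 CPM in WT, 51.2, 71.4 and 71 in elav null, 79.2, 82.5 and 73.4 for the double null, with 87.4, 99.8 and 102 in WDd. Both null groups were below every WT library. The log2 fold change was −0.69 ± 0.18 SE in elav null (edgeR adjusted p = 0.0151), a call lost without WT replicate 3 or elav null replicate 1 (log2 −0.55 to −0.54). It was −0.75 ± 0.19 SE without the library labelled elav null replicate 3 (edgeR adjusted p = 0.0159). The double null gave −0.41 ± 0.18 SE (edgeR adjusted p = 0.123). The second glypican gene, dlp, which acts with Slit and Lar, was not called, at −0.12 ± 0.19 and 0.15 ± 0.19 SE. The motor axon genes beat-Ia, which loosens bundles so that axons can leave them, and side, which encodes an attractant displayed along their path, were not called either, at 0.19 to 0.39 and −0.10 to 0.02.

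Nrt rose in both null groups and had the lowest adjusted p of the 46 genes against WT. Nrt (CG9704, 3L: 16766072 to 16777465) encodes Neurotactin, a transmembrane adhesion protein of axons and epithelia. Its levels were 46, 46.6 and 54.2 CPM in WT, 72.7, 77.9 and 102 in elav null, 111, 119 and 97.8 for the double null, with 63.5, 60.3 and 59.2 in WDd. The null groups were above WT and WDd in every library, and WDd was above WT in every library. Its log2 fold change was 0.78 ± 0.16 SE in elav null (edgeR adjusted p = 0.00402), or 0.63 ± 0.15 SE without the library labelled elav null replicate 3 (edgeR adjusted p = 0.00918), and 1.16 ± 0.16 SE in the double null (edgeR adjusted p = 0.000197). The gene Ama, which encodes Amalgam, the secreted ligand of Neurotactin, stood at 5.08, 2.90 and 3.92 CPM in WT, 15.1, 16.8 and 21.1 in elav null, 23.2, 31.1 and 20.7 for the double null, with 29.1, 4.85 and 5.78 in WDd. In WDd, replicate 1 stood within the range of the double null and the other libraries near WT. Ama rose by 2.15 ± 0.55 SE on the log2 scale in elav null (edgeR adjusted p = 0.0157) and by 2.65 ± 0.56 SE in the double null (edgeR adjusted p = 0.00378). The gene mus302, antisense to part of Nrt, was at no more than 8.22 CPM in any library. This does not show how reads over the shared bases were counted. Fas1, Fas2 and Fas3, homophilic adhesion proteins of axon bundles, were not called, at −0.27 to 0.01 in elav null and −0.57 to 0.10 in the double null.

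**Figure D5:**
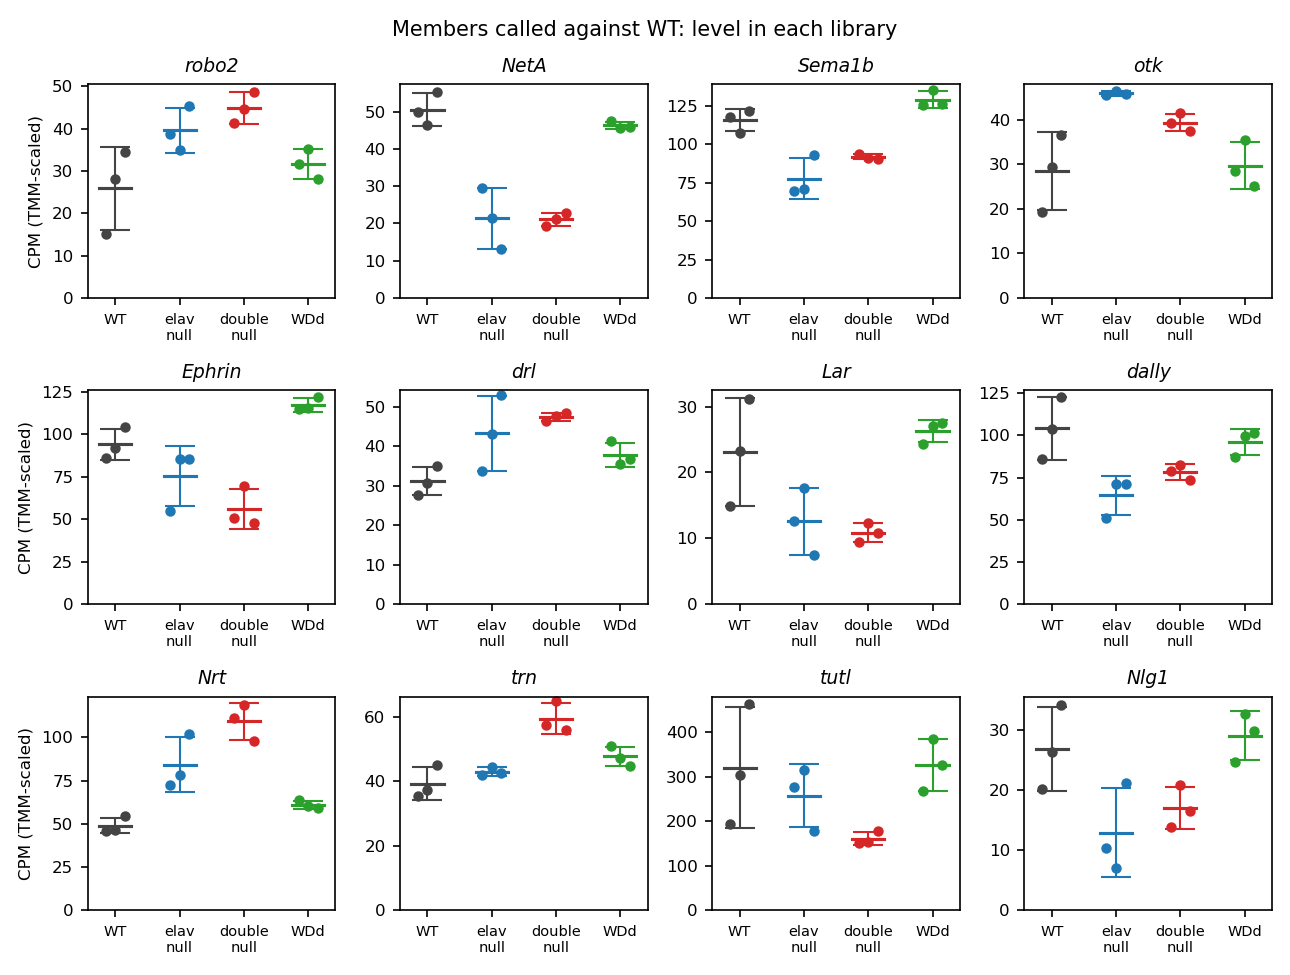
CPM in each library of the 12 genes called in at least 1 comparison with WT, 1 panel per gene, with 3 points for each genotype, a bar at their mean and error bars of 1 SD. NetA stands at 13.2 to 29.5 CPM in the null groups and at 45.7 or above in WT and WDd.

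Among the leucine-rich repeat proteins, trn rose in the double null. The gene (CG11280, 3L: 13114271 to 13118077) encodes Tartan, a relative of Capricious used in cell sorting and axon targeting. It stood at 35.4, 37.4 and 44.99 CPM in WT, 41.8, 44.5 and 42.7 in elav null, 57.6, 64.8 and 55.8 for the double null, with 50.9, 47.3 and 44.8 in WDd. The double null was above every other library, and elav null overlapped WT. The change on the log2 scale in the double null was 0.60 ± 0.15 SE (edgeR adjusted p = 0.0102), and it held without each library in turn. In elav null it was 0.13 ± 0.15 SE (edgeR adjusted p = 0.617). Its relative caps, at 0.01 ± 0.19 and 0.32 ± 0.19 SE, and Con, which encodes the muscle and motor axon protein Connectin, at −0.08 ± 0.19 and −0.52 ± 0.19 SE, were not called.

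Of the immunoglobulin proteins, tutl fell in the double null. The gene (CG15427, 2L: 4283148 to 4323781) encodes Turtle, which restrains axon branching and keeps terminals apart. It was at 194, 303 and 464 CPM in WT, 277, 316 and 179 in elav null, 151, 153 and 177 for the double null, with 267, 385 and 326 in WDd. The double null was below every WT library, although the WT libraries themselves spanned a wide range. The fitted log2 fold change was −0.998 ± 0.29 SE in the double null (edgeR adjusted p = 0.0236), lost without WT replicate 2 or 3 or any 1 double null library (log2 −1.06 to −0.61), and without the 3 libraries with the fewest detected genes (edgeR adjusted p = 0.0549). In elav null it was −0.32 ± 0.28 SE (edgeR adjusted p = 0.517), or −0.10 without the library labelled elav null replicate 3 (edgeR adjusted p = 0.871). Dscam2, Dscam3 and Dscam4, relatives of the self-avoidance gene Dscam1, and Lac were not called, at −0.21 to 0.78 in elav null and −0.72 to 0.37 in the double null. Dscam3 was at 28.4, 41.7 and 68.5 CPM in WT and 92.5, 87.1 and 58.7 in elav null, where replicates 1 and 2 lay above all WT libraries and the library labelled replicate 3 did not (log2 fold change 0.78 ± 0.29 SE, edgeR adjusted p = 0.0832). The teneurin genes Ten-m and Ten-a, whose WT libraries lay far apart, gave −0.18 ± 0.27 and −0.08 ± 0.34 SE in elav null and 0.04 ± 0.27 and −0.01 ± 0.34 SE in the double null.

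Among the synaptic adhesion genes, Nlg1 fell in elav null. The gene (CG31146, 3R: 7658247 to 7694874) encodes Neuroligin 1, the postsynaptic partner of Nrx-1 at the neuromuscular junction, made in muscle. It stood at 20.2, 26.4 and 34.2 CPM in WT, 10.4, 7.07 and 21.3 in elav null, 13.9, 20.9 and 16.5 for the double null, with 24.7, 32.7 and 29.97 in WDd. The elav null replicates 1 and 2 were below every WT library, and the library labelled replicate 3 was within the WT range. The log2 fold change in elav null was −1.07 ± 0.35 SE (edgeR adjusted p = 0.0483), −1.61 ± 0.28 SE without the library labelled elav null replicate 3 (edgeR adjusted p = 0.00121), and not called without WT replicate 2 or 3 or elav null replicate 1 or 2 (log2 −1.10 to −0.77). In the double null it was −0.65 ± 0.34 SE (edgeR adjusted p = 0.216). The muscle marker sums are given above for each elav null library, and their part in the values of Nlg1 was not tested. Nrx-1, its presynaptic partner, and the neuronal cadherin gene CadN were not called, at −0.28 ± 0.33 and 0.00 ± 0.29 SE in elav null and −0.31 ± 0.33 and −0.27 ± 0.29 SE in the double null.

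In WDd, none of the 46 genes was called against WT by edgeR, none reached an unadjusted p under 0.05, and DESeq2 called none. Over all genes tested, 0.0641% were called higher and 0.135% lower by edgeR, and 4.59% reached the unadjusted p. The log2 fold changes ran from −0.19 (NetB) to 0.32 (Ephrin and Nrt), with SEs of 0.14 to 0.34. Changes larger than these errors could also be missed, since Nrt at 0.32 ± 0.16 SE was not called. A total of 34 of 46 were above 0, with a median of 0.12 against −0.03 over all genes, but that median was 0.36 without WT replicate 3 and −0.02 without WT replicate 1. All 3 WDd libraries lay above all 3 WT libraries for 6 genes (Nrt, Ephrin, Eph, drl, Sema1b and Sema2a), beside 6.69% of all genes, and below them for 0, beside 7.60%.

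Set against the null groups, NetA, Lar, Ephrin and Sema1b were called higher in WDd in both comparisons with TMM scaling. With RLE scaling NetA alone among these 4 was called in both. The log2 fold changes against elav null and double null stayed positive for Lar (0.97 and 1.14), Ephrin (0.54 and 0.93) and Sema1b (0.64 and 0.35). Compared with elav null, 6 genes were called higher and 0 lower, beside 11.0% and 5.83% of all genes. They were Nlg1 (1.18 ± 0.35), NetA (1.11 ± 0.23), Lar (1.06 ± 0.31), Sema1b (0.73 ± 0.15), Ephrin (0.64 ± 0.20) and dally (0.58 ± 0.18), as log2 fold change ± SE, with edgeR adjusted p from 0.00359 to 0.0391. Compared with the double null, 8 were called higher and 1 lower, beside 14.3% and 6.60% of all genes. The higher ones were Lar (1.28 ± 0.31), NetA (1.14 ± 0.23), Ephrin (1.07 ± 0.20), tutl (1.02 ± 0.29), Con (0.75 ± 0.19), unc-5 (0.65 ± 0.21), Eph (0.58 ± 0.18) and Sema1b (0.49 ± 0.15), the lower one was Nrt (−0.84 ± 0.16), and edgeR adjusted p ran from 0.00158 to 0.0393. With RLE in place of TMM scaling, which moved the all-gene median from 0.07 to −0.03 and from 0.01 to −0.13, the splits were 3 higher and 3 lower against elav null and 4 and 2 against the double null, beside 9.49% and 7.43% of all genes and 11.4% and 8.89%. Under RLE, Lar, Ephrin and dally were not called against elav null (edgeR adjusted p = 0.0541, 0.0787 and 0.0917), nor were Sema1b, tutl, unc-5 and Eph against the double null (0.111, 0.0511, 0.0973 and 0.0914). DESeq2 did not call Ephrin and dally against elav null (adjusted p = 0.0524 and 0.0667) or Sema1b, unc-5 and Eph against the double null (0.0687, 0.0774 and 0.0626). With the length correction 5 of the 6 calls against elav null were kept, Ephrin being lost (edgeR adjusted p = 0.0579), and 7 of the 9 against the double null, Sema1b and Eph being lost (0.0729 and 0.0671). On chromosome 4, where Ephrin and Eph lie, 32.9% of genes were called higher in WDd against elav null, with a median log2 fold change of 0.46, beside 15.2 to 18.6% on the other arms. Against the double null 64.5% were called higher, with a median of 0.72, beside 20.2 to 24.5%, and Eph lay below that median. The part of this shift in the values of Ephrin and Eph was not tested. NetA held in both comparisons without each library in turn, as did Sema1b against elav null and Ephrin and Nrt against the double null. Against elav null the calls of the other 4 genes were also lost when single libraries were left out. Lar lost its call without elav null replicate 1, the library labelled elav null replicate 3 or any 1 WDd library (log2 0.79 to 1.10), dally and Ephrin without elav null replicate 1 or any 1 WDd library (0.42 to 0.64 and 0.45 to 0.69), and Nlg1 without elav null replicate 1 or 2 or WDd replicate 2 or 3 (0.88 to 1.15). Against the double null, Sema1b and unc-5 lost theirs without any 1 of the 6 libraries (0.46 to 0.49 and 0.58 to 0.72), and tutl without any 1 double null library or WDd replicate 2 or 3 (0.90 to 1.08). Eph lost it without double null replicate 1 or 3 or WDd replicate 1 or 3 (0.47 to 0.59), Con without double null replicate 1 or WDd replicate 3 (0.67 to 0.68), and Lar without double null replicate 1 (1.17). By groups that do not overlap, WDd was higher in 13 and lower in 4 genes against elav null (23.8% and 12.1% of all genes), and higher in 15 and lower in 6 against the double null (28.9% and 19.8%). These comparisons share the WDd libraries.

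The added loss of fne was read by setting the double null against elav null. In that comparison edgeR called 0 of the 46 genes higher and 0 lower, beside 0.0428% and 0.185% of all genes. An unadjusted p under 0.05 was reached by 7 of them, beside 13.1% of all genes. DESeq2 called 1 higher, and its share over all genes is not given here. As all 12 libraries shared 1 fit, the spread of the WT libraries also entered the edgeR test. Without overlap of the groups, 2 were higher and 6 lower, beside 7.80% and 7.41% of all genes. The edgeR calls changed when the library labelled elav null replicate 3 was left out, so that fewer samples set the spread. Without that library, 4 genes were called higher and 1 lower, beside 2.18% and 4.94% of all genes. As log2 fold changes ± SE, the higher ones were Nlg1 (0.97 ± 0.27, edgeR adjusted p = 0.0456), Lac (0.67 ± 0.17, edgeR adjusted p = 0.0284), Nrt (0.54 ± 0.15, edgeR adjusted p = 0.0475) and Fas3 (0.51 ± 0.14, edgeR adjusted p = 0.0449), and the lower one was Fas1 (−0.72 ± 0.19, edgeR adjusted p = 0.039). In the library labelled elav null replicate 3, Fas1 stood at 158 CPM, Lac at 165 and Nrt at 102. Double null replicates 1 to 3 were at 134, 153 and 132 CPM for Fas1, at 152, 175 and 128 for Lac and at 111, 119 and 97.8 for Nrt. For elav null replicates 1 and 2 the values were 249.9 and 214 for Fas1, 103 and 88.5 for Lac, and 72.7 and 77.9 for Nrt. In these 3 genes the library was nearer to the double null than to the other elav null libraries. They were picked with their values in view, from genes called only without that library. That choice favours this outcome, so it adds no separate support.

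The rest of the guidance pathway was counted in lists outside the 46 genes. Of 32 cytoplasmic effectors of guidance receptors, which link receptors to actin and microtubules, 0 were called higher and 7 lower in elav null, beside 5.99% and 11.7% of all genes, and 0 and 5 in the double null, beside 6.68% and 14.7%. Those that fell included, in elav null and the double null, Rac2 (−1.68 ± 0.20 and −1.58 ± 0.19 SE on the log2 scale), a Rac GTPase also made in haemocytes, CRMP (−0.69 ± 0.17 and −1.33 ± 0.17), the collapsin response mediator, and tsr (−1.05 ± 0.23 and −1.35 ± 0.23), which encodes cofilin. RhoGEF64C fell in elav null (−1.57 ± 0.27) and chic, which encodes profilin, in the double null (−0.73 ± 0.16). The list's median log2 fold change was −0.16 and −0.12, beside −0.11 and −0.03 over all genes.

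Of 27 other guidance ligands and receptors, 1 was called higher and 0 lower in elav null, beside 5.99% and 11.7% of all genes, and 4 and 1 in the double null, beside 6.68% and 14.7%. Ptp99A, a further receptor phosphatase gene, rose in both (0.83 ± 0.24 and 0.94 ± 0.24 SE). In the double null gbb, the muscle-derived BMP ligand of motor neurons, rose by 0.77 ± 0.24 SE, the Hedgehog receptor gene ptc by 0.87 ± 0.28 and the atypical cadherin gene stan by 1.04 ± 0.34, while smo fell (−0.86 ± 0.26). Dscam1, the relative of Dscam2, Dscam3 and Dscam4 best known in self-avoidance, was at 134, 220.1 and 359 CPM in WT and 149, 161 and 174 in the double null, which overlap. Of the other Beaten path and Sidestep relatives, 19 of 20 were tested, 0 were called in elav null and 1, side-VII, fell in the double null (−0.60 ± 0.19 SE), with 14.7% of all genes called lower there.

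Of 40 other neural adhesion proteins, 2 were called higher and 8 lower in elav null, beside 5.99% and 11.7% of all genes, and 3 and 4 in the double null, beside 6.68% and 14.7%. The homophilic protein gene nrm, which encodes Neuromusculin, fell by 1.86 ± 0.23 and 2.47 ± 0.24 SE, and the integrin gene if, which acts at muscle attachments, by 1.60 ± 0.19 and 1.38 ± 0.19. The cadherin genes Cad74A and ds fell in elav null (−1.25 ± 0.23 and −1.43 ± 0.32 SE), and Cals, which encodes Calsyntenin, in the double null (−0.82 ± 0.16). The laminin gene LanA also fell in both (−0.97 ± 0.22 and −0.77 ± 0.22 SE), and mys, LanB1 and LanB2 in elav null (−0.59 ± 0.18, −0.69 ± 0.21 and −0.58 ± 0.18). The synaptic matrix gene hig rose (0.74 ± 0.18 and 1.23 ± 0.19 SE), as did Ama, and Cont, which encodes Contactin, rose in the double null (0.57 ± 0.16). In WDd against WT none of the 119 genes of these 4 lists was called by edgeR. The integrin and laminin genes also serve muscle attachment, and muscle markers were lower in the same libraries. Their part was not tested.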

How the data were processed

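Poly(A) RNA was counted per gene in 12 libraries, 3 in each of 4 groups. Per the submitters' processing notes, the authors' tools were featureCounts 2.0.8, STAR 2.7.11a, DESeq2 1.40.2 and Trim Galore 0.6.7, listed with dm6 and with no role or order. The deposited values are raw read counts, 1 column per library. The WT columns name elav null over FM7 per the file headers, whereas the labels name elav e5 over FM7. They were read as the same libraries. Symbols, positions and summed exon lengths came from reference annotations, and all 46 gene IDs matched.

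From the counts, 14031 genes that passed filterByExpr, all 46 among them, were tested two-sided with edgeR 4.0.16 under R 4.3.3 (TMM scaling, quasi-likelihood F tests, group as the only term, all 12 libraries in 1 fit, Benjamini-Hochberg adjustment over all genes, called at an adjusted p under 0.05). The fit had a common biological coefficient of variation of 0.595 and a median of 5.36 prior degrees of freedom. TMM factors also scaled the CPM values. Medians by chromosome and length took genes of at least 5 CPM. Library totals are given with the results, and the limit of 3 counts in a library corresponds to 0.0328 to 0.139 CPM, counting error only. The procedure was tested on simulated data.

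Values are given in every library for members called in at least 1 comparison with WT, and other members by symbol and range. Of each further list, up to 4 called genes per comparison and direction were named. Other genes named were chosen after their values were seen. The members, lists and tests were chosen with earlier results of these data known. Alternatives were RLE scaling, DESeq2 1.42.0, the replicate number as a block, only the 6 libraries compared, robust dispersion, no low-count filter, leaving out each library, and leaving out the 3 libraries with the fewest detected genes. A correction for exon length by library, as offsets in the model, was added after seeing the data. Splicing and poly(A) site use were not analysed here.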

Additional observations from a re-analysis of the deposited data

How the results depend on the processing

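Over single libraries left out in turn, the calls among the 46 genes ranged as follows. Against WT there were 1 to 5 higher and 1 to 5 lower in elav null, 2 to 7 and 1 to 8 for the double null, and 0 and 0 in WDd each time. In the double null against elav null there were 0 to 4 higher and 0 to 1 lower. WDd gave 2 to 6 and 0 to 1 against elav null, and 2 to 6 and 1 to 1 against the double null. Of all genes, 3.37 to 5.82% were then called higher and 7.73 to 11.1% lower in elav null against WT. The double null against WT gave 4.11 to 6.14% and 9.91 to 13.2%, and WDd 0 to 0.0956% and 0.0205 to 0.143%. The double null against elav null gave 0 to 2.18% and 0 to 4.94%. For WDd the shares were 6.53 to 10.9% and 3.32 to 5.89% against elav null. Against the double null they were 9.26 to 11.6% and 3.8 to 5.52%. RLE scaling gave 3 higher and 3 lower in WDd against elav null, beside 9.49% and 7.43% of all genes. Against the double null it gave 4 and 2, beside 11.4% and 8.89%. DESeq2 gave 5 higher in elav null against WT, 1 higher in the double null against elav null, 3 lower in WDd against elav null, and 5 higher and 2 lower in WDd against the double null. Without the low-count filter, 1 gene was lower in WDd against elav null. With only the 6 libraries compared, 1 was higher and 1 lower in elav null against WT, 2 higher and 2 lower in WDd against elav null, and 6 lower in WDd against the double null. With the length correction, added after seeing the data, 6 were higher in elav null and 8 for the double null against WT. In WDd 3 were lower against elav null and 5 against the double null. Shares of all genes were 9.13% and 9.74% higher, then 8.97% and 9.56% lower, in the same order. Such shares are not given here for DESeq2, no low-count filter, only the 6 libraries compared or the replicate block. Counts under those settings are therefore not read as results about the 46 genes. Where a library or 6 libraries fewer entered, fewer samples set the spread. For the other settings the cause was not tested. At an equal depth of 2e+07 counts, 10522 genes were detected in the library labelled elav null replicate 3, the fewest. Double null replicate 2 had 11549 and elav null replicate 1 had 11879, against 13264 to 15610 in the other libraries. Leaving out these 3 left elav null with 1 library, so no comparison with elav null was checked in this way. Robust dispersion and leaving out the 3 libraries with the fewest detected genes kept each count they gave within 1.5 times. Without those 3 libraries, though, robo2 and tutl lost their calls in the double null against WT (edgeR adjusted p = 0.0576 and 0.0549), while Nlg1, unc-5 and comm gained one (0.0331, 0.0475 and 0.0328). No gene called in any comparison turned its direction under these alternatives.

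Same-numbered libraries of different groups did not deviate together (correlations of deviations −0.26 to 0.13), so the replicate numbers give no pairing. With the replicate number as a block, 2 genes were higher and 4 lower in elav null and 4 and 5 in the double null against WT. Every gene had at least 161 counts in every library, and precision rested on 3 libraries a group and their spread. For long transcripts the spread was wide among WT libraries. For some shorter genes it was wide in elav null instead, as for Lac (119 ± 40.8 CPM, against 118 ± 4.72 in WT). Nlg1, also among the shorter genes, had an SE of 0.35 in elav null against WT. What set the SE of each gene was not tested. As all 12 libraries shared 1 fit, the WT spread also entered the comparisons without WT. Dscam2 in the double null against elav null had an SE of 0.33. Its SDs were 7.06 and 23.7 CPM in those groups and 85.5 in WT.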

Other observations

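Ratios of related genes were taken within each library, for pairs chosen with their values in view. The NetA to NetB ratio of CPM was 0.606, 0.363 and 0.280 in WT replicates 1 to 3, 0.308, 0.189 and 0.125 in elav null, 0.179, 0.165 and 0.183 for the double null and 0.483, 0.328 and 0.387 in WDd. The 3 double null libraries were close together and below every WT library, while elav null overlapped WT. The Ephrin to Eph ratio was 0.822, 0.852 and 0.878 in WT, 0.698, 0.786 and 0.830 in elav null, 0.621, 0.613 and 0.611 for the double null and 0.876, 0.881 and 0.827 in WDd, so within this pair of chromosome 4 genes the double null stood apart from the other 3 groups. The robo2 to robo1 ratio was 0.302, 0.446 and 0.359 in WT, 0.586, 0.490 and 0.922 in elav null, 0.746, 0.977 and 0.812 for the double null and 0.442, 0.404 and 0.356 in WDd. Every null library exceeded every WT and WDd library, and the library labelled elav null replicate 3 lay within the range of the double null. The robo2 to robo3 ratio was 0.250, 0.386 and 0.319 in WT, 0.320, 0.343 and 0.709 in elav null, 0.498, 0.467 and 0.542 for the double null and 0.398, 0.331 and 0.316 in WDd. Here elav null replicates 1 and 2 lay within the WT range. The trn to caps ratio was 0.259, 0.270 and 0.230 in WT, 0.304, 0.326 and 0.212 in elav null, 0.288, 0.324 and 0.297 for the double null and 0.297, 0.241 and 0.239 in WDd, and the double null overlapped elav null and WDd. The Sema1b to Sema1a ratio was 2.01, 1.30 and 0.913 in WT, 0.799, 0.622 and 0.969 in elav null, 1.28, 1.17 and 0.989 for the double null and 1.42, 1.20 and 1.26 in WDd, where WT overlapped every other group. NetA and Sema1b, with 3.343 and 4.565 kb of exon, were set over longer genes, NetB with 8.168 kb and Sema1a with 10.19 kb. Their ratios fell from WT replicate 1 to 3. The part of the length difference between libraries in them was not tested, nor were any of these ratios.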
